A study of Mus musculus with 24 samples.

Results

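The immediate early genes described here are 10 genes of transcription regulators, Fos, Fosb, Fosl1, Jun, Junb, Egr1, Egr2, Egr3, Nr4a1 and Ier2, among 19938 mouse genes measured on microarrays of differentiating embryoid bodies. A gene was taken as measured where a probe set was annotated to its symbol alone, and the probe set with the highest mean was to be used where there were several. Each of the 10 genes had 1 such probe set. The 24 Affymetrix Mouse Gene ST 1.0 arrays came from embryoid bodies, which are free-floating aggregates of embryonic stem cells, made from the 46C mouse line, in which a green fluorescent protein gene sits at the Sox1 locus and reports neural progenitors. Untreated aggregates and aggregates given the combination of cyclosporin A (1 ug/ml) with FK506 (100 ng/ml) over days 3 to 8 were collected at days 4, 6, 8 and 12, with 3 arrays in each of the 8 groups, so the day 12 aggregates had been without the drugs for 4 days. All groups carried the same reporter line and all were in suspension from day 3. The day 8 and day 12 aggregates were plated on day 7, after the day 4 and day 6 groups had been collected, and the day 12 groups had been in serum-free ITS medium since day 8. The series describes its replicates as 3 independent experiments, all with 1 stem cell line.

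Immediate early genes are transcribed within minutes of a stimulus without new protein synthesis, mostly through serum response factor, CREB and MEF2 acting downstream of ERK, calcium and stress signals. FOS and JUN family proteins pair to form AP-1, EGR proteins are zinc finger factors held in check by the corepressors NAB1 and NAB2, and NR4A1 is an orphan nuclear receptor. FK506 and cyclosporin A both block calcineurin, the calcium-dependent phosphatase that sends NFAT to the nucleus, where NFAT often binds beside AP-1, and in T cells Egr2, Egr3 and Nr4a1 are induced through calcineurin.

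All levels are log2 signals and all differences are log2 differences, and levels of different genes were not set against each other because probe sets differ in brightness. An SE belongs to a difference between 2 groups of 3 arrays. The mean log2 level of 7 neuron markers in untreated aggregates was 8.34 to 8.48 on the day 4 arrays and 9.64 to 10.14 on the day 12 arrays, and that of 10 naive pluripotency markers was 10.25 to 10.44 at day 4 and 7.96 to 8.16 at day 12. The embryoid bodies are mixtures, so fewer cells of a type and less RNA per cell cannot be told apart. One pair of arrays stood apart for these genes: the untreated and the treated arrays of day 12 replicate 2 held the highest value of their group for most of the 10 genes, and day 12 results without them are given further on.

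Promoter sequence was read from the RefSeq promoter table of build GRCm38.p6, which held 6 of the 10 genes (Fos, Fosb, Jun, Junb, Egr2 and Nr4a1) and not Fosl1, Egr1, Egr3 or Ier2. The 250 bases upstream of the start are shown, 5′ to 3′ on the gene's strand, for Fos, Junb, Nr4a1 and Jun. These were highest on replicate 2 in both day 12 groups, as were Fosb and Egr2, and Jun changed most over time. Capitals mark matches to CGTCA, the core of the CREB binding site, on either strand, and in Nr4a1 also 1 match to the EGR site GCGNGGGCG. The windows were chr12:85473640-85473889 on the plus strand for Fos, chr8:84978749-84978998 on the minus strand for Junb, chr15:101266596-101266845 on the plus strand for Nr4a1, upstream of a start that lies inside the annotated gene, and chr4:95052223-95052472 on the minus strand for Jun.
Fos: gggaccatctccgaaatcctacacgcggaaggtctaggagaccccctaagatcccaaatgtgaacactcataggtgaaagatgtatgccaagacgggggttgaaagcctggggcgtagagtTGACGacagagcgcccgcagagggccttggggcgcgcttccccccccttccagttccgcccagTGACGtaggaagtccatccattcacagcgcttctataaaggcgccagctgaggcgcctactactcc
Junb: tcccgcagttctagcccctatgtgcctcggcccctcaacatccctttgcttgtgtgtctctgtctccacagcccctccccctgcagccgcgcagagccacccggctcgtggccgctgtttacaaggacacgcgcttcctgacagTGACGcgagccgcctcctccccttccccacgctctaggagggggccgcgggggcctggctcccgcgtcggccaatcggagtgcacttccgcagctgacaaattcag
Nr4a1: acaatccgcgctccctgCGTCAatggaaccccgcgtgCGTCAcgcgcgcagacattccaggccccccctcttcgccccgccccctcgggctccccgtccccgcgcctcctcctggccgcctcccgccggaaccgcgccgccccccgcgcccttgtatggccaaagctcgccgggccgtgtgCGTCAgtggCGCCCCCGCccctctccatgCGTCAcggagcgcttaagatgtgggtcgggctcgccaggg
Jun: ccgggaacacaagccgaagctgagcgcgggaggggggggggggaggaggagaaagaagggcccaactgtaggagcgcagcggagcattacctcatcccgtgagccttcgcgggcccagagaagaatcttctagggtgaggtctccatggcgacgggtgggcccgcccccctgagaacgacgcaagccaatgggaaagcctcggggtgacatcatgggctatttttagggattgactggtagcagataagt

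The CREB core CGTCA was found in at least 1 window of 5 of the 6 genes, all but Jun, and in 24.1% of the 15614 genes with a promoter window. Nr4a1 held 4 copies, Fos 2, and Fosb and Junb 1 each. The EGR site occurred in Fosb and Nr4a1, against 7.93% of genes. A CArG box, the serum response factor site, matched only in Egr2, which had 5 windows, against 1.45% of genes, and the NFAT core GGAAAA was also found only there, against 22.3%. The full CRE TGACGTCA and the AP-1 site TGANTCA had no match in these 6 genes, against 2.33% and 7.12% of all genes. All motifs were searched on both strands, a full CRE holds the CREB core by its letters, and a match or its absence in this window is a description of letters and not of binding.

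**Figure D1:**
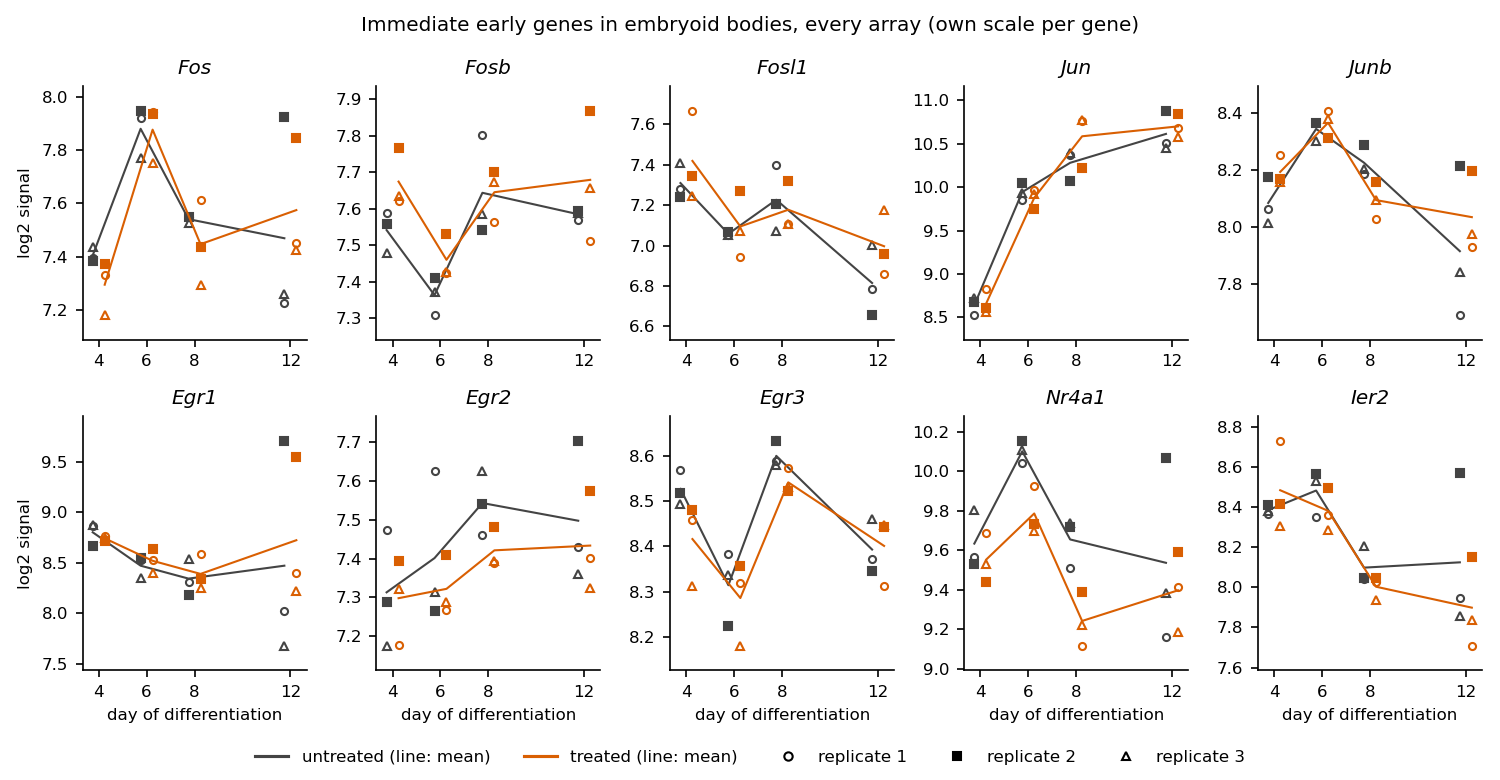
Log2 signal (vertical axis, own scale for each gene) of the 10 immediate early genes on every array, by day of differentiation (horizontal axis), with untreated groups in grey, treated groups in orange, lines through the group means and a symbol for each replicate. Jun rose from day 4 onward, Fos and Nr4a1 peaked at day 6, and the filled squares of replicate 2 stand above the other replicates at day 12 in most panels.

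Jun was the member with the largest change over time. Its product belongs to the JUN family, whose proteins FOS proteins pair with to form AP-1. The untreated arrays read 8.53, 8.67 and 8.73 at day 4, 9.85, 10.05 and 9.93 at day 6, 10.37, 10.07 and 10.40 at day 8, and 10.50, 10.88 and 10.45 at day 12 (replicates 1, 2 and 3 in that order here and below). The treated arrays read 8.82, 8.61 and 8.56, then 9.96, 9.75 and 9.92, then 10.76, 10.21 and 10.77, and 10.68, 10.84 and 10.58. No day 4 array overlapped with any later array in either treatment. In order, the group means ran from treated day 12 (10.70) over untreated day 12 (10.61), treated day 8 (10.58), untreated day 8 (10.28), untreated day 6 (9.94) and treated day 6 (9.88) to treated day 4 (8.66) and untreated day 4 (8.64), and treated and untreated arrays of the same day overlapped at all 4 days. Untreated day 8 and untreated day 6 did not overlap but did not pass the test either. In untreated aggregates Jun rose by 1.30 ± 0.14 (SE, n = 3 per group) from day 4 to day 6 (2.46-fold, limma adjusted p = 2.7e-07) and by 1.97 ± 0.14 from day 4 to day 12 (3.91-fold, adjusted p = 3.6e-11, and 1.83 without both day 12 arrays of replicate 2). In treated aggregates it rose by 1.21 ± 0.14 from day 4 to day 6 (limma adjusted p = 5.8e-07) and by a further 0.71 ± 0.14 to day 8 (adjusted p = 0.00024), a step that in untreated aggregates was 0.34 and did not pass the test. The difference between the treated and untreated steps, 0.37, did not pass limma's interaction test (adjusted p = 0.49).

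Fos, the inducible AP-1 subunit, peaked at day 6. Untreated arrays gave 7.40, 7.38 and 7.44 at day 4, 7.92, 7.95 and 7.77 at day 6, 7.55, 7.55 and 7.53 at day 8, and 7.22, 7.93 and 7.26 at day 12. Treated arrays gave 7.33, 7.37 and 7.18, then 7.95, 7.93 and 7.75, then 7.61, 7.44 and 7.29, and 7.45, 7.85 and 7.43. The day 6 arrays of both treatments lay above all day 4 and day 8 arrays, and at day 12 only replicate 2 reached the day 6 range. Fos rose from day 4 to day 6 by 0.48 ± 0.14 untreated (limma adjusted p = 0.0084) and by 0.58 ± 0.14 treated (adjusted p = 0.0019), and it fell by 0.43 ± 0.14 from day 6 to day 8 in treated aggregates (adjusted p = 0.015). The untreated fall of that step, -0.34, did not pass the test, and neither did the difference between the steps.

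Junb, whose product can stand in for JUN in AP-1 and is a weaker activator, kept a narrower range. Untreated arrays read 8.06, 8.17 and 8.02 at day 4, 8.37, 8.37 and 8.30 at day 6, 8.19, 8.29 and 8.20 at day 8, and 7.69, 8.21 and 7.84 at day 12. Treated arrays read 8.25, 8.17 and 8.16, then 8.41, 8.31 and 8.38, then 8.03, 8.16 and 8.10, and 7.93, 8.20 and 7.98. The day 6 arrays were the highest in both treatments, and at day 12 replicate 2 lay above the other replicates. In untreated aggregates Junb rose by 0.26 from day 4 to day 6 (limma adjusted p = 0.032) and fell by 0.31 from day 8 to day 12 (adjusted p = 0.013). In treated aggregates it fell by 0.27 from day 6 to day 8 (limma adjusted p = 0.026).

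The other FOS family genes changed less than Jun. Fosl1, which encodes FRA-1, ranged from 6.66 to 7.67 over the 24 arrays. It was lower at day 12 than at day 4 in untreated aggregates by 0.50 ± 0.12 (limma adjusted p = 0.00082), with 6.78, 6.66 and 7.00 against 7.28, 7.24 and 7.41, and these groups did not overlap. Without both day 12 arrays of replicate 2 it was lower by 0.42 (limma adjusted p = 0.0097). Most of that fall came after day 8 (-0.41, limma adjusted p = 0.0069), and in treated aggregates Fosl1 fell by 0.32 from day 4 to day 6 (adjusted p = 0.028). Fosb ranged from 7.31 to 7.87 and its group means were lowest at day 6 in both treatments. It fell by 0.21 from day 4 to day 6 in treated aggregates (limma adjusted p = 0.037) and rose by 0.28 from day 6 to day 8 in untreated ones (adjusted p = 0.011).

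The 3 EGR genes did not move as a group. Egr3 dipped at day 6, with untreated arrays at 8.57, 8.52 and 8.49 on day 4, 8.38, 8.22 and 8.34 on day 6, 8.59, 8.63 and 8.58 on day 8 and 8.37, 8.35 and 8.46 on day 12. The untreated day 6 and day 12 arrays all lay below the day 4 and day 8 arrays. Its steps were -0.21, 0.29 and -0.21 (limma adjusted p = 0.013, 0.0022 and 0.016), each with an SE of 0.07, and in treated aggregates the rise from day 6 to day 8 was 0.26 (adjusted p = 0.0033). Egr2, the hindbrain and Schwann cell regulator KROX20, stayed between 7.18 and 7.70 on all 24 arrays and no step passed the test. Egr2, Fos, Fosb and Fosl1 lay below the 40th percentile of mean level over all genes. Detection calls were not used, and whether the signal of these genes stood above background was not tested. Egr1 had lower means at days 6 and 8 than at day 4, without passing the test: untreated arrays gave 8.86, 8.67 and 8.87 at day 4, 8.52, 8.54 and 8.34 at day 6, and 8.31, 8.18 and 8.54 at day 8. The day 4 arrays lay above all day 6 and day 8 arrays. The SE of an Egr1 difference was 0.34 because the fit shares 1 spread over all groups and the day 12 replicates lay far apart.

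Nr4a1 was highest at day 6 in both treatments. The untreated arrays read 9.56, 9.53 and 9.81 at day 4, 10.04, 10.15 and 10.11 at day 6, 9.51, 9.72 and 9.74 at day 8, and 9.16, 10.07 and 9.38 at day 12. The treated arrays read 9.69, 9.44 and 9.53, then 9.93, 9.74 and 9.70, then 9.12, 9.39 and 9.22, and 9.41, 9.59 and 9.19. Untreated day 6 was the highest group, and its arrays lay above all treated arrays of all days. Untreated Nr4a1 rose by 0.47 ± 0.16 from day 4 to day 6 (limma adjusted p = 0.020) and fell by 0.45 ± 0.16 from day 6 to day 8 (adjusted p = 0.029). Treated Nr4a1 was higher by 0.23 at day 6 than at day 4, which did not pass limma's test (adjusted p = 0.23), and fell by 0.54 ± 0.16 from day 6 to day 8 (limma adjusted p = 0.0074). Ier2, an immediate early gene whose product is a nuclear transcription regulator, fell from day 6 to day 8 by 0.38 ± 0.14 in both treatments (limma adjusted p = 0.037 untreated and 0.035 treated). Its untreated arrays read 8.35, 8.56 and 8.53 at day 6 and 8.04, 8.05 and 8.21 at day 8, with no overlap.

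Counted together, 5 of the 10 genes passed limma's test from day 4 to day 6 in untreated aggregates (4 higher, 1 lower) against 42% of all genes (21.1% higher, 20.9% lower). From day 6 to day 8, 4 passed (2 higher, 2 lower) against 36.1% (17.8% and 18.3%), and from day 8 to day 12, 3 passed, all lower, against 38.7% (19.9% lower). Over the whole span from day 4 to day 12, 2 passed, Jun and Fosl1, against 57.2%. In treated aggregates the counts were 4 against 44.2%, 6 against 41.5% and 0 against 33.2% for the same 3 steps, with 1 member at an unadjusted p under 0.05 in the last. The median difference of the 10 genes stayed within 0.12 of zero at each of these steps, and that of all genes within 0.08. Leaving aside the added 2-fold requirement, 10 of the 25 member calls were kept under every alternative analysis that still tested the gene. These were both Jun rises and the treated day 8 step of Jun, the Fos rise in each treatment, the day 8 rise of Egr3 in each treatment, the treated day 8 fall of Nr4a1, and Jun and Fosl1 from day 4 to day 12. The other 15 calls were lost under at least 1. The 2-fold requirement kept only the Jun calls from day 4 to day 6 in each treatment and from day 4 to day 12.

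Single arrays decided many of the weaker calls, as seen when each array was left out in turn (adjusted p of limma, highest over all alternatives). In untreated aggregates from day 4 to day 6, Junb was lost without any day 6 array or day 4 replicate 1 or 3 (up to 0.14), Egr3 without day 4 replicate 1 or day 6 replicate 2 (up to 0.080), and Nr4a1 without day 4 replicate 1 or 2 or day 6 replicate 2 or 3 (up to 0.10). From day 6 to day 8, Fosb was lost without day 8 replicate 1 (up to 0.15), Nr4a1 without day 6 replicate 2 or 3 or day 8 replicate 1 (up to 0.12), and Ier2 without day 6 replicate 2 or 3 or day 8 replicate 1 or 2 (up to 0.12). From day 8 to day 12, Junb was lost without day 8 replicate 2 or day 12 replicate 1 or 3 (up to 0.11), and Egr3 without replicate 2 of either day (up to 0.065). In treated aggregates from day 4 to day 6, Fosb was lost without day 4 replicate 2 or 3 or day 6 replicate 1 or 3 (up to 0.32), and Fosl1 without replicate 1 of either day or day 6 replicate 3 (up to 0.18). From day 6 to day 8, Fos was lost without day 6 replicate 1 or day 8 replicate 3 (up to 0.078), Junb without replicate 1 or 3 of either day (up to 0.12), and Ier2 without day 6 replicate 1 or 2 or day 8 replicate 1 or 3 (up to 0.12).

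With the drugs, meaning treated against untreated here and below, none of the 10 genes passed limma's test at any of the 4 days. At day 12 the treated aggregates had been without the drugs for 4 days. At day 4 the differences, treated minus untreated, ran from -0.11 to 0.13 against 0.00502% of all genes called, and at day 6 from -0.32 to 0.10 against 1.84%. At day 8 they ran from -0.41 to 0.30 against 8.93%, and at day 12 from -0.23 to 0.25 against 17.9%. At an unadjusted p under 0.05 the counts of members were 0, 0, 2 and 0. The 95% confidence intervals show what such differences could hide: that of Egr2 at day 8 ran from -0.34 to 0.09, that of Egr3 from -0.19 to 0.08, and that of Fos at day 12 from -0.18 to 0.39. For Egr1 the interval at day 8 was -0.65 to 0.74.

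**Figure D2:**
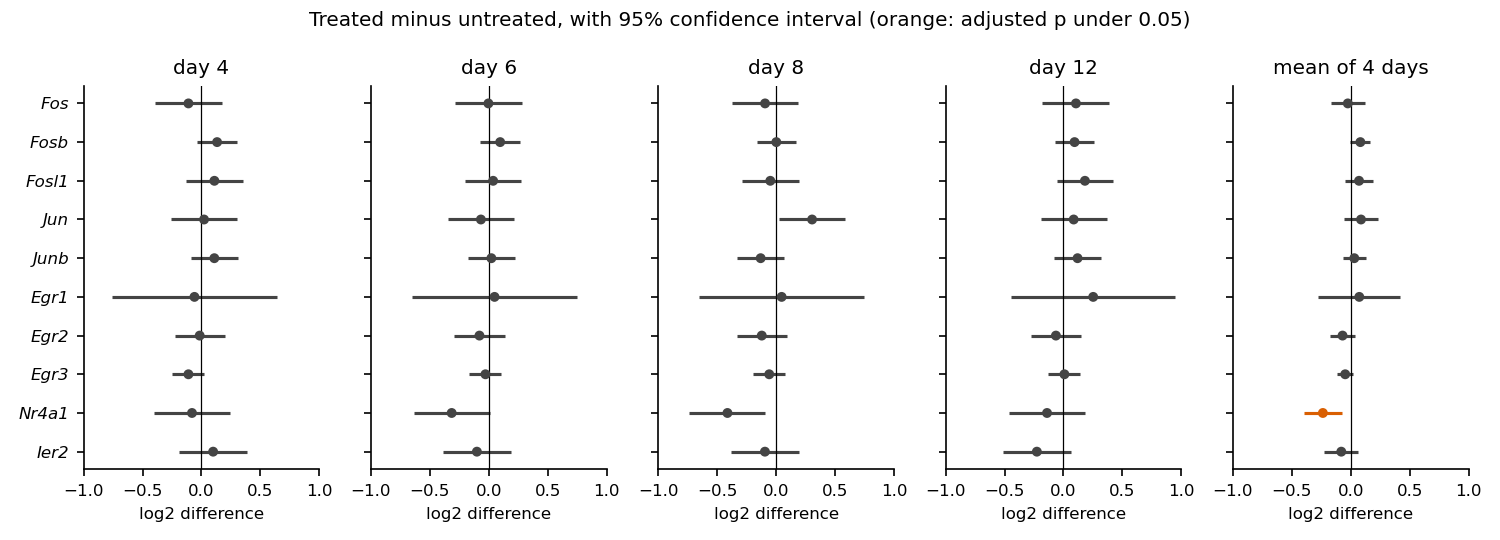
Log2 difference, treated minus untreated (horizontal axis), for each of the 10 genes at days 4, 6, 8 and 12 and as the mean of the 4 days, with 95% confidence intervals from limma. Only the mean over the 4 days of Nr4a1, at -0.24, passed the adjusted test, and the widest intervals are those of Egr1.

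The 2 genes with an unadjusted p under 0.05 at day 8 were Nr4a1 and Jun. Nr4a1 was lower in treated aggregates at all 4 days on the means, by 0.08 at day 4, 0.32 at day 6, 0.41 at day 8 and 0.14 at day 12, after withdrawal. At days 6 and 8 the 3 treated arrays lay below the 3 untreated arrays, and at days 4 and 12 they overlapped. The day 8 difference was -0.41 ± 0.16 (limma adjusted p = 0.10). Deviations of same-numbered treated and untreated arrays correlated above 0.1 at days 6, 8 and 12. So did those of treated replicate 3 and untreated replicate 1 at days 8 and 12, so the pairing was not clear-cut. With the replicate number as a block, the limma adjusted p of the day 8 difference was 0.025. The mean over the 4 days was -0.24 ± 0.08 (0.85-fold, limma adjusted p = 0.044, and 0.0084 with the block). Nr4a1 was the only one of the 10 genes called in that comparison, where 14.4% of all genes were called in either direction and 6.24% lower. That call was lost in 15 of the 24 fits that each left out 1 array. Over all alternatives the mean effect stayed between -0.28 and -0.17, and the highest limma adjusted p, 0.087, came without treated day 12 replicate 3 (-0.21). The arrays without which it was lost were untreated replicates 1 and 3 of day 4, 1, 2 and 3 of day 6 and 2 and 3 of day 8, and treated replicates 2 and 3 of day 4, 2 and 3 of day 6, 1 and 3 of day 8 and 1 and 3 of day 12.

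Jun at day 8 differed the other way, by 0.30 ± 0.14 (limma adjusted p = 0.17, and 0.047 with the block). All 3 treated arrays were above the untreated array of the same replicate number, but the groups overlapped because replicate 2 was low in both, at 10.21 treated and 10.07 untreated. Without treated day 8 replicate 2 the difference was 0.49 and passed limma's test (adjusted p = 0.0075), while without untreated day 8 replicate 2 it was 0.20 (adjusted p = 0.55). Replicate 2 of treated day 8 also had the lowest mean level of the 10 mesenchyme and smooth muscle markers in its group, 9.48 against 10.61 and 11.11. At day 8 these markers were higher with the drugs (8 of 10 called, 0 lower), while 5 of 7 primed epiblast and 5 of 8 neural progenitor markers were lower. None of these calls held with the day 8 groups fitted alone, where no gene passed. The group ranges of mean log2 level were 9.48 to 11.11 treated and 8.72 to 9.55 untreated for mesenchyme, 8.94 to 9.93 and 9.97 to 10.53 for primed epiblast, and 8.65 to 9.00 and 9.16 to 9.46 for neural progenitors. The part of these markers in the Jun and Nr4a1 differences was not tested.

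For some genes the treated and untreated arrays of a day did not overlap. Treated arrays all lay above untreated ones for Fosb at days 4 and 6, and all below for Fos and Egr3 at day 4, Nr4a1 at day 6, and Junb, Egr3 and Nr4a1 at day 8. That made 3 of 10 genes at day 4 (10.7% of all genes), 2 at day 6 (21.5%), 3 at day 8 (23.6%) and 0 at day 12 (32.6%). No change of the drug effect between neighbouring days passed limma's interaction test for the 10 genes, with 0 called at each of the 3 steps against 0.0953%, 0.401% and 5.2% of all genes and 0 members at an unadjusted p under 0.05.

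Both relatives of Nr4a1 passed the test with the drugs at day 12. Nr4a2, which specifies dopamine neurons, read 9.54, 9.57 and 9.41 on the untreated day 12 arrays and 8.62, 8.84 and 8.62 on the treated ones. Nr4a3 read 7.66, 8.17 and 7.72 against 6.74, 7.45 and 6.93. Neither pair of groups overlapped. Nr4a2 was lower by 0.81 ± 0.10 (0.57-fold, limma adjusted p = 1.1e-05) and Nr4a3 by 0.81 ± 0.14 (0.57-fold, adjusted p = 0.00025), and both calls held in all alternative fits (-0.85 and -0.86 without both day 12 arrays of replicate 2). In untreated aggregates Nr4a2 had risen from day 8 to day 12 by 1.32 ± 0.10 and Nr4a3 by 1.24 ± 0.14 (limma adjusted p = 1.1e-09 and 2.4e-07), whereas treated aggregates rose by 0.51 and 0.87. The day 12 effect on Nr4a2 differed from its day 8 effect by -0.81 (limma interaction test, adjusted p = 0.0026), and for Nr4a3 the same test gave -0.38 (adjusted p = 0.26). At day 8 the Nr4a3 difference was -0.43 ± 0.14 (limma adjusted p = 0.051, and 0.0020 with the replicate block within day), with treated arrays below all untreated ones. All 7 neuron markers were also lower with the drugs at day 12, at a mean log2 level of 8.33 to 8.93 treated and 9.64 to 10.14 untreated, and their part in the Nr4a2 and Nr4a3 differences was not tested.

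**Figure D3:**
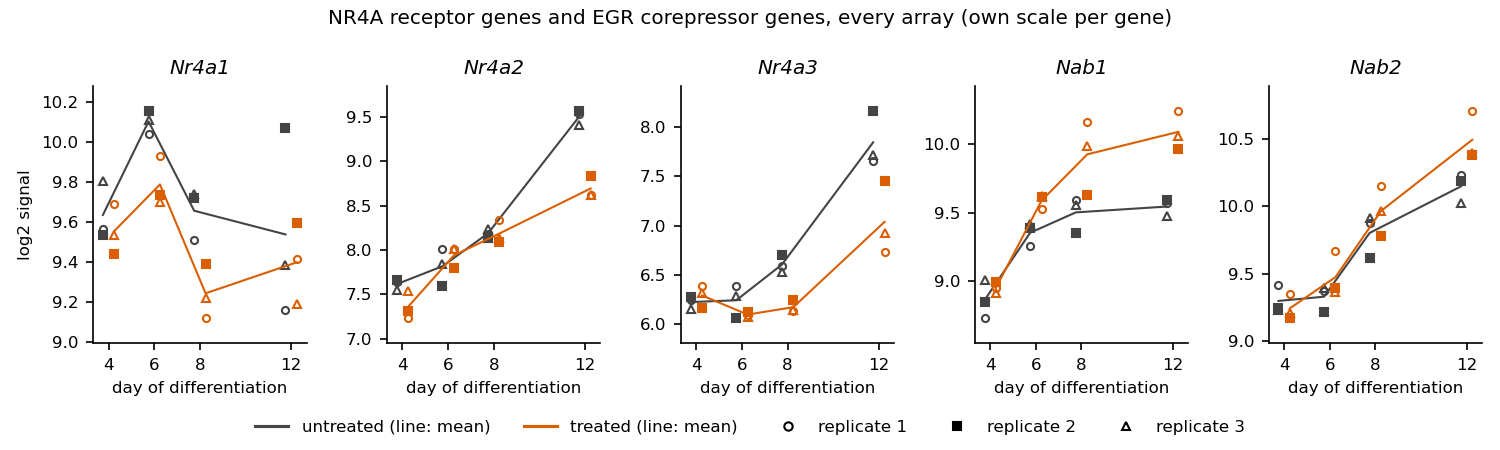
Log2 signal (vertical axis, own scale for each gene) of Nr4a1, Nr4a2, Nr4a3, Nab1 and Nab2 on every array by day of differentiation (horizontal axis), in the same colours and symbols as for the members. Nr4a2 and Nr4a3 rose to day 12 and were lower in treated aggregates there, while Nab1 and Nab2 were higher.

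The corepressors of EGR proteins were higher with the drugs while Egr1, Egr2 and Egr3 did not pass the test. Nab1 read 9.57, 9.59 and 9.48 on untreated and 10.25, 9.97 and 10.06 on treated day 12 arrays, with no overlap. It was higher by 0.42 ± 0.10 at day 8 (limma adjusted p = 0.014) and by 0.55 ± 0.10 at day 12 (adjusted p = 0.00081). Nab2 was higher by 0.35 ± 0.11 at day 12 (limma adjusted p = 0.032). Without both day 12 arrays of replicate 2 these day 12 differences were 0.63 and 0.42 and passed. That fit was chosen after seeing that Egr1 and other members were high on these arrays. Egr1 was higher by 0.46 in it at day 12 (limma adjusted p = 0.021), which is a description and not a test. Its difference was -0.16 without the treated array of replicate 2 alone and 0.87 without the untreated array alone. The day 8 call of Nab1 and the day 12 call of Nab2 were each lost in 4 alternative fits, among them 3 that left out 1 array: treated replicates 1 and 3 and untreated replicate 2 for Nab1, and treated replicate 1 and untreated replicates 2 and 3 for Nab2.

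Among 26 further immediate early genes, 0 were called at day 4, 1 higher and 1 lower at day 6, 2 lower at day 8, and 4 higher and 4 lower at day 12, beside 0.00502%, 1.84%, 8.93% and 17.9% of all genes. At day 6 Myc was higher by 0.71 ± 0.11 (limma adjusted p = 0.0012), at 11.49, 11.34 and 11.38 treated against 10.76, 10.63 and 10.67 untreated, and Jund was lower by 0.32 (adjusted p = 0.044), a call lost without any 1 of the 6 day 6 arrays. At day 8 Ier3, a survival gene induced by ERK and NF-kB, was lower by 0.64 ± 0.10 (limma adjusted p = 0.0013), and Btg2, an antiproliferative gene, by 0.42 ± 0.12 (adjusted p = 0.034), a call lost without treated replicate 1 or 3 or any untreated day 8 array (up to 0.19). No gene passed with the day 8 groups fitted alone, so every drug call at day 8 here and below was lost in that fit. At day 12 Btg2 was lower by 0.60 ± 0.12 and Fosl2, which encodes FRA-2, higher by 0.59 ± 0.12 (limma adjusted p = 0.0015 for each), and without both day 12 arrays of replicate 2 by 0.64 and 0.72. The median difference of the 26 genes was 0.03, -0.10, -0.06 and 0.07 at the 4 days, beside 0.03, 0.00, -0.04 and 0.02 for all genes.

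Over time in untreated aggregates, 15 of the 26 genes rose and 6 fell from day 4 to day 6, beside 42% of all genes called, with a median difference of 0.31 against -0.04 for all genes. From day 6 to day 8, 6 rose and 9 fell (36.1% of all genes), and from day 8 to day 12, 5 rose and 9 fell (38.7%). The 4 with the smallest p in the first step were Ccn1, Klf6, Btg2 and Ier3, higher by 2.40, 0.86, 0.94 and 0.74 (limma adjusted p between 1.4e-07 and 1.2e-05). In the next step Ier3, Zfp36 and Maff fell by 1.26, 0.87 and 0.48 and Myc rose by 0.53 (limma adjusted p between 1.8e-07 and 0.0013). Of 12 measured cytoskeletal targets of serum response factor, 11 rose from day 4 to day 6 (21.1% of all genes rose), led by Tpm1, by 1.16 (limma adjusted p = 1.6e-08), and with the drugs 1 was higher at day 8 (Acta2) and 3 at day 12 (Vcl, Fhl2 and Cnn2).

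The counts of the lists below are read beside the 8.93% of all genes called at day 8 and the 17.9% at day 12: 2 of 22 upstream genes and 1 of 14 calcineurin genes at day 8 lie at that share. Of 22 measured upstream regulators (serum response factor, its cofactors, CREB, MEF2 and kinases), none passed at days 4 and 6. At day 8, 2 were higher, Elk3 by 0.53 ± 0.14 and Mef2a by 0.27 ± 0.08 (limma adjusted p = 0.021 and 0.035), and at day 12, 2 were higher (Crtc3 and Mef2a) and 3 lower, among them Creb1 by 0.26 and Mapk8 by 0.22 (limma adjusted p = 0.0052 and 0.040). Of 15 feedback genes that dampen the response, Spry1, Spry2 and Dusp4, which restrain ERK signalling, were lower at day 8 by 0.47, 0.45 and 0.56 (limma adjusted p = 0.0057, 0.042 and 0.024), and the Spry2 and Dusp4 calls were lost without treated replicate 1 or 3 or untreated replicate 2 or 3. Nab1, also on that list, was higher at day 8. At day 12 the only calls on the list were Nab1 and Nab2, both higher. Of 14 genes of calcineurin and NFAT signalling, Rcan2 alone was called, higher by 0.40 ± 0.12 at day 8 (limma adjusted p = 0.045). Of 13 measured AP-1 partners, Maf was higher at day 8 by 0.87 ± 0.21 and at day 12 by 1.23 ± 0.21 (limma adjusted p = 0.011 and 0.00024), and Fosl2 and Atf7 were higher at day 12. Of 9 measured AP-1 target genes, Cd44 and Plau were higher at day 8, by 1.07 and 0.52 (limma adjusted p = 0.0021 and 0.020). At day 12 Timp1 and Mmp9 were higher by 1.09 and 1.10 and Ccnd1 lower by 0.84 (adjusted p = 1.1e-06, 2.5e-05 and 6.1e-05). Without both day 12 arrays of replicate 2 the day 12 differences of Maf, Timp1, Mmp9 and Ccnd1 were 1.40, 1.18, 1.35 and -1.03.

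The widest spread of the members lay between replicates at day 12. Replicate 2 had the highest value of its group in both treatments for 8 of the 10 genes, all but Fosl1 and Egr3, against 17.1% of all genes. Egr1 read 8.02, 9.71 and 7.68 untreated and 8.40, 9.55 and 8.22 treated, so that replicate 2 exceeded the mean of the other replicates by 1.85 (3.61-fold) and 1.24 (2.36-fold). Ordered by the smaller of its 2 excesses, Egr1 ranked 1 among 19938 genes. The excess, untreated then treated, was 0.68 and 0.41 for Fos, 0.66 and 0.38 for Ier2, 0.80 and 0.29 for Nr4a1, 0.45 and 0.24 for Junb, 0.40 and 0.21 for Jun, and 0.31 and 0.21 for Egr2. For Fosb it was 0.02 and 0.28, for Egr3 -0.07 and 0.06, and for Fosl1 -0.24 and -0.06. The pooled SD of Egr1 between replicates was 0.92 at day 12 and 0.13 at the earlier days, and for Fos it was 0.33 and 0.10.

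**Figure D4:**
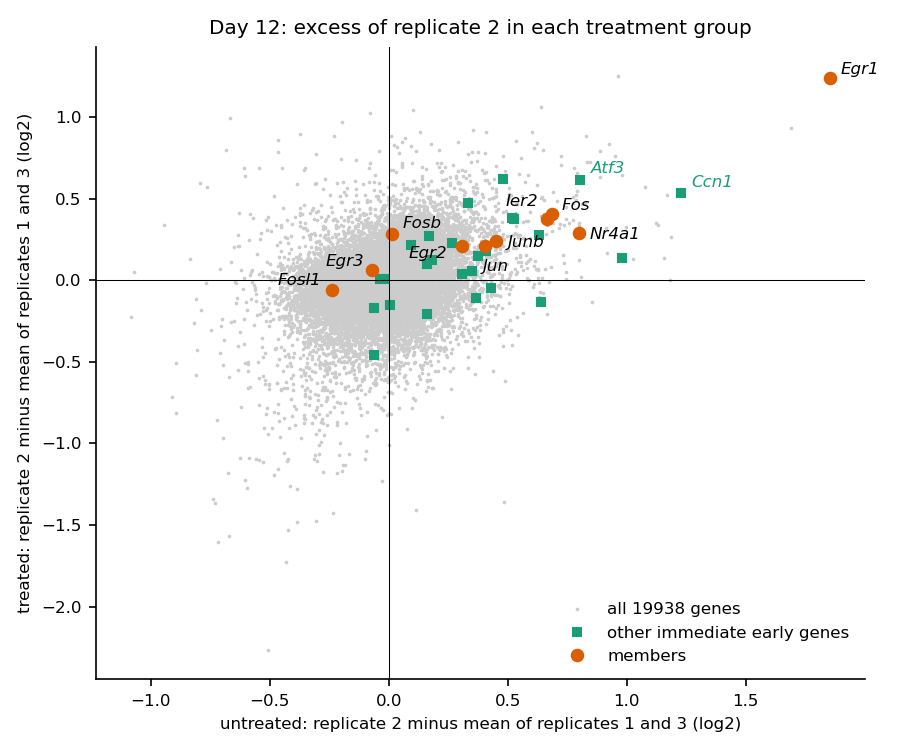
Excess of replicate 2 over the mean of replicates 1 and 3 at day 12, log2, in untreated (horizontal axis) and treated aggregates (vertical axis), for all 19938 genes in grey, 26 other immediate early genes in green and the 10 members in orange. Egr1 lies farthest to the upper right at 1.85 and 1.24, and Fos, Ier2, Nr4a1, Junb, Jun and Egr2 lie above 0.2 in both directions.

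Other immediate early genes were high on the same arrays. Of the 26, 14 had replicate 2 highest in both treatments, with a median excess of 0.34 untreated and 0.13 treated. Ccn1, a secreted matrix protein gene induced by serum and stretch, read 10.50, 11.71 and 10.48 untreated and 10.91, 11.42 and 10.86 treated. Atf3, a stress-induced AP-1 relative, read 8.53, 9.36 and 8.58 untreated and 8.68, 9.37 and 8.83 treated. Dusp1, Ccn2, Btg2, Rhob and Nr4a3 were also among the 14, as were 8 of 15 feedback genes, and Dusp1 is counted in both lists. Of 10 heat shock genes 2 had replicate 2 highest in both treatments, beside 17.1% of all genes, the share for all counts of this kind here. The markers of cell types on these arrays did not all lie on the same side: replicate 2 was highest in both treatments for 4 of 7 cardiac, 4 of 7 endothelial, 0 of 10 mesenchyme, 0 of 7 blood and 0 of 7 neuron markers. For the remaining lists the counts were 3 of 7 primed epiblast, 3 of 8 endoderm, 3 of 8 surface ectoderm and 2 of 10 naive pluripotency markers. They were 1 of 8 for neural progenitor, 1 of 7 for neural crest and 0 of 6 for hindbrain markers. The mean log2 level of the neuron markers was lowest on replicate 2 among untreated arrays (9.64 against 10.09 and 10.14) and highest among treated ones (8.93 against 8.33 and 8.72). The part of these differences in the immediate early gene values was not tested.

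Leaving out both of these arrays, an alternative chosen after seeing the data, changed the day 12 results. The arrays were picked because most members were highest on them. Lower day 12 means and smaller spreads of those members were therefore built in. The p-values and counts of members in this fit are descriptions and not tests. In untreated aggregates Egr1 turned from 0.13 (limma adjusted p = 0.79) to -0.49 (adjusted p = 0.0033) from day 8 to day 12, and its change since day 4 was -0.95 (adjusted p = 1.1e-06). Fos (-0.30, limma adjusted p = 0.011) and Nr4a1 (-0.38, adjusted p = 0.011) then also fell from day 8 to day 12, and Junb fell by 0.46 (adjusted p = 3.3e-05), while the calls of Fosl1 and Egr3 in that step were lost (limma adjusted p = 0.052 and 0.065). From day 4 to day 12 the number of members called went from 2 to 6, beside 10326 of 19938 genes in that fit. With the drugs, Egr1 at day 12 was then higher by 0.46 (limma adjusted p = 0.021), the only one of the 10 genes called (beside 3241 of all genes), and the mean effect on Nr4a1 was -0.19 (adjusted p = 0.015). Without the untreated array of replicate 2 alone, Fos, Junb and Egr1 were called higher with the drugs at day 12, by 0.33, 0.27 and 0.87 (limma adjusted p = 0.048, 0.030 and 0.018, with 2469 of all genes called), and the change of the drug effect on Junb from day 8 to day 12, 0.40, passed too (adjusted p = 0.043). Without the treated array of replicate 2 alone these differences were -0.03, 0.04 and -0.16, and 0 of the 10 genes were called (limma, with 4324 of all genes called). Leaving out 1 array of the pair keeps the high value of the other in its group.

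Genes with the most similar course over the 8 group means were sought for the 5 members whose means spanned at least 0.5, and are given as a description of 8 means that share the same arrays. Jun was most like Mvb12b, Sgce and Atxn1 (Pearson r = 0.996, 0.995 and 0.994), and many genes that rise steadily have such values. Nr4a1 was most like Rasd1, Atp2a3 and Espn (r = 0.973, 0.965 and 0.958), Fos like Inca1, Plgrkt and Ypel3 (r = 0.968, 0.966 and 0.964), Fosl1 like Ccdc86, Zdhhc12 and Asb6 (r = 0.987, 0.982 and 0.980), and Ier2 like Atp23, Kif18a and Rdm1 (r = 0.990, 0.987 and 0.987). The members themselves were left out of this search.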

How the data were processed

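Gene expression was measured in 24 embryoid body samples. The deposited log2 values came from RMA in Affymetrix Expression Console, per the submitters' processing notes. Tool versions, library files and the build were not given in the sources used here. Only the value range shows that the scale is log2, and detection calls were not used here. Of 35556 probe sets, 21789 had 1 symbol in the platform annotation, 1621 had several and 12146 were unlisted, which left 19938 genes, the probe set with the highest mean standing for each of the 999 genes with several. All contrasts used limma 3.58.1 under R 4.3.3 (1 mean per group, 16 residual degrees of freedom, eBayes) over all genes, with Benjamini-Hochberg adjustment within each of 15 contrasts at 0.05, and the scripts were tested on simulated data. A gene passed, rose, fell or was called where its adjusted p was under 0.05. Arrays have no read depth, so precision rests on 3 arrays per group (median SE 0.09 for treated minus untreated). The members and gene lists were chosen with earlier results of these data known. The text names the members, up to 4 genes of a list per comparison with the smallest p and the 3 genes most like a member. Within days, correlations of same-numbered deviations were 0.30, 0.14 and 0.21 at day 6, 0.48, 0.55 and 0.11 at day 8, 0.12, 0.34 and 0.25 at day 12, all above 0.1, and -0.01, 0.19 and -0.05 at day 4. Treated replicate 3 with untreated replicate 1 gave 0.11, 0.13 and 0.26 at days 4, 8 and 12, each above the same-numbered value of replicate 3. Alternatives changed the filter, normalization, probe set choice, variance model, array weights, replicate block, arrays included and threshold. Promoter motifs were matched in RefSeq windows with Python 3.11.15.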

Additional observations from a re-analysis of the deposited data

How the results depend on the processing

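Of 2530 values of single members under the alternatives other than the 2-fold requirement, 2255 kept their direction and their side of the threshold. A further 73 lost a call and 64 gained one. In 138 the sign differed, and 137 of these were called neither in the reported fit nor under the alternative (Nr4a1 at day 12 with the drugs, for example, went from -0.14 to 0.03 without both day 12 arrays of replicate 2). The other was called after turning: Egr1 in untreated aggregates from day 8 to day 12, at -0.49 without both day 12 arrays of replicate 2 (leaving out 1 array at a time: -0.49 to 0.52). The fit with the replicate number as a block within each day called 2 members at day 8, Jun and Nr4a1, where the fit without it called 0, and left the other counts of members called for the drug effects as they were. A block over all days changed 1 count, from 4 to 5 for day 6 to 8 untreated, beside 7625 of all genes called in that fit. Array weights, whose estimation stopped before it converged, also called 2 at day 8, 1 in the change of the drug effect from day 6 to day 8 and 5 between day 4 and day 12 in untreated aggregates. All genes called with the weights in these comparisons numbered 5158, 1390 and 12729. Quantile normalization gave 3 members for day 4 to 6 and 5 for day 4 to 12 in untreated aggregates, and 2 for day 8 to 12 in treated ones. Centring each array on its median gave 5 and 2 for the latter comparisons. All genes called there numbered 7256, 11770 and 7062 with quantile normalization, and 14607 and 7635 with centring. A fit of the compared groups alone gave 8 untreated and 2 treated members from day 4 to day 6, beside 9282 and 7652 of all genes. Leaving out genes below the 40th percentile of mean level removed Fos, Fosb, Fosl1 and Egr2 and left 1 member from day 4 to day 12 untreated and 1 from day 4 to day 6 treated. Among the 11963 genes kept, 8814 and 5842 were called in these comparisons. Requiring a 2-fold difference as well left 1 member, Jun, for day 4 to day 6 in each treatment and for day 4 to day 12, and 0 for day 6 to day 8 in each treatment, for day 8 to day 12 and for the mean effect over the 4 days. Leaving out 1 array at a time gave 0 to 1 members for the drug effect at day 8, 0 to 3 at day 12, 0 to 1 for its mean over the 4 days and 0 to 1 for its change from day 8 to day 12. For the untreated steps it gave 2 to 4 (day 4 to 6), 1 to 4 (day 6 to 8), 1 to 4 (day 8 to 12) and 2 to 6 (day 4 to 12), and for the treated steps 2 to 4 (day 4 to 6) and 3 to 6 (day 6 to 8). All genes called at these untreated steps numbered 6039 to 8064, 4483 to 6812, 6180 to 7428 and 10264 to 11272. At these treated steps they numbered 6911 to 8076 and 6426 to 8283. Over all genes the drug effect called 1 gene at day 4 (0 to 143 under the alternatives, the highest here and below with array weights), 366 at day 6 (98 to 1292, and 721 with the block within day), 1781 at day 8 (0 with the compared groups alone, to 5158, and 2822 with the block) and 3563 at day 12 (2159 to 4762). Its mean called 2881 (2282 to 5173), and its changes between neighbouring days 19 (4 to 614), 80 (3 to 1390) and 1037 (224 to 3201). Day 6 to 8 untreated called 7197 (down to 4483) and day 4 to 6 treated 8812 (down to 5842). Of the 15 genes named as most like a member, 4 were also among the first 3 by Spearman's rho.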
